A study of Mus musculus with 6 samples.

Results

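The L1 family of cell adhesion molecules (L1cam, Chl1, Nrcam and Nfasc) and the 3 ankyrin genes (Ank1, Ank2 and Ank3) were followed, at gene and at exon level, in mouse cortical neurons after knockdown of Celf1, the RNA-binding protein whose older name is Cugbp1. The members are the probe sets of an exon array whose platform annotation gives one of these 7 symbols alone, which are 370 of 316997 probe sets with a single gene symbol and 7 of 22071 genes. The family was chosen by its gene values and its probe set levels relative to the gene, Cugbp1 shRNA against control, among them single probe sets of Nrcam, Nfasc and Ank2. All values of the 7 genes in this comparison are therefore given as a description and not as tests.

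The study set 3 arrays of cultures infected with a lentivirus that carries a short hairpin RNA (shRNA) against Cugbp1 beside 3 arrays of cultures infected with a control shRNA lentivirus. All 6 samples were primary neurons from the cortex of C57BL/6 mice at embryonic day 15, prepared without meninges and treated with AraC, a blocker of DNA synthesis, on day 2. Virus was added on day 5 for 4 hours, and RNA was taken on day 11. The labels do not say whether the 3 arrays of a group come from separate cultures, so p-values measure only the spread between these arrays, which may be technical. They do not give the hairpin's sequence, the number of hairpins or the promoter that drives them. The treatment text of replicates 2 and 3 in both groups names Tdp-43 in place of Cugbp1, and the series text speaks of motor neurons. Celf1 itself had a gene value of 9.59, 9.40 and 9.33 in Cugbp1 shRNA replicates 1, 2 and 3, against 10.85, 10.79 and 10.75 in control replicates 1, 2 and 3. It fell by 1.36 (SE 0.10, limma, adjusted p = 0.0124), to 39.1% of control. Celf1 was thus low on all 3 arrays labelled Cugbp1 shRNA, the 2 whose text names Tdp-43 included. All values are log2 robust multi-array average (RMA) units, in which array medians lay between 5.74 and 5.78, and a gene value summarises the probe sets of 1 gene on 1 array.

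L1 family proteins are single-pass membrane proteins of neurons and some glia, with immunoglobulin and fibronectin type III domains outside the cell, and they guide axons, bundle them and mark membrane domains. Their short cytoplasmic tails bind ankyrins, which in turn hold spectrin and the actin skeleton, so that adhesion outside the cell is anchored inside it. Transcripts of both families are spliced in many forms, with small optional exons in the L1 family and a very long neuronal exon in Ank2 and in Ank3.

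The gene values of the family differed little between the groups. Of the 7 members 0 were called in the fit over all genes (limma, adjusted p under 0.05), where 3.94% of 16524 genes were called. An unadjusted p under 0.05 (limma) was reached by 0 of the 7, beside 18.8% of all genes. Differences of Cugbp1 shRNA minus control ran from -0.17 for Ank3 to 0.11 for Ank2 on the log2 scale, with a median of -0.12, against a median of -0.01 over all genes. The 95% confidence intervals of the 7 differences together spanned -0.40 to 0.37, given as a description. In 3 of 3 same-numbered pairs 5 members had the lower value with Cugbp1 shRNA, and Ank2 had the higher one.

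**Figure D1:**
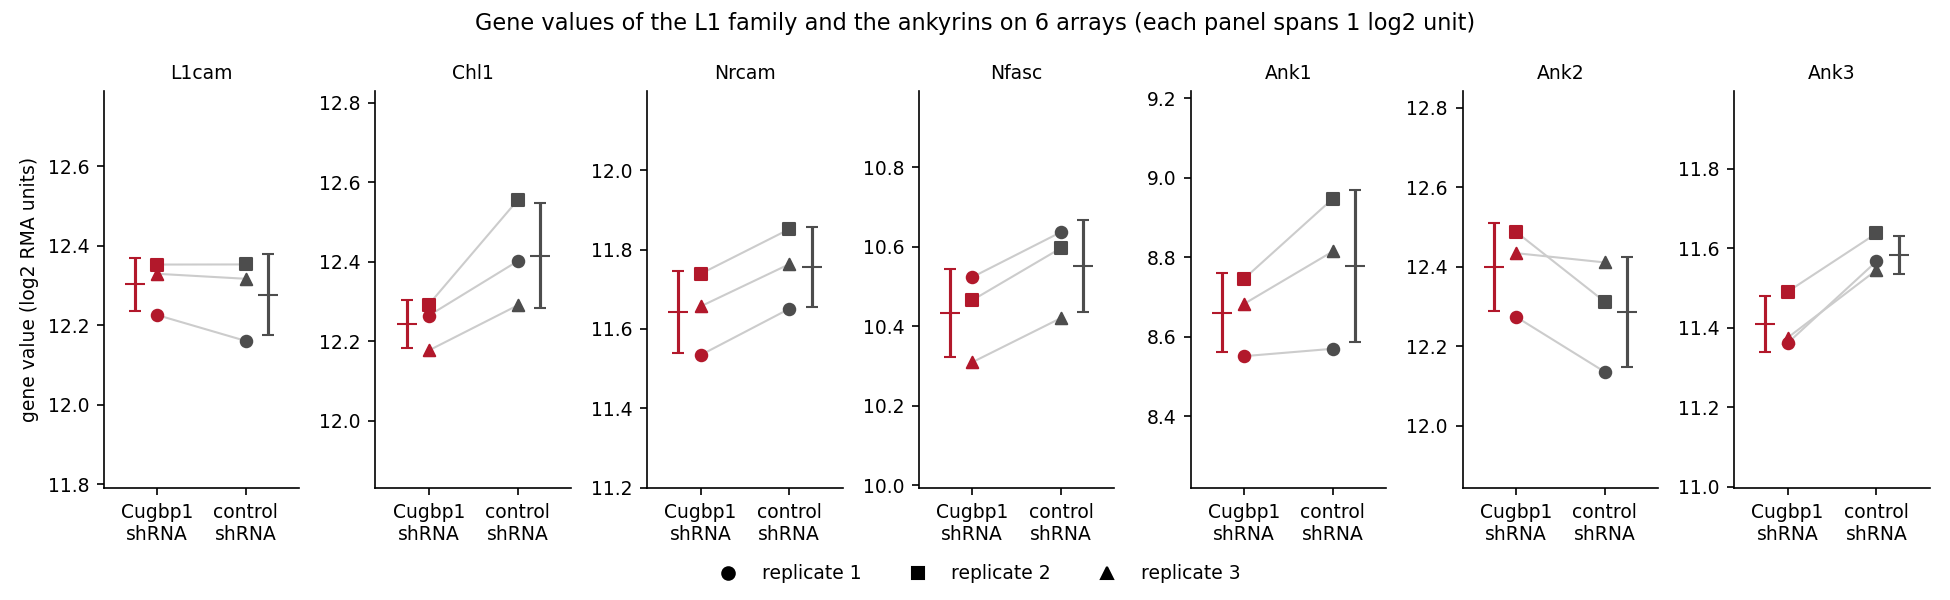
Gene values (log2 RMA units, y axis) of the 7 members on the 6 arrays, with Cugbp1 shRNA left and control shRNA right in each panel, lines joining arrays of the same replicate number, and bars at the group mean ± SD. Every panel spans 1 log2 unit, and only in the Ank3 panel do the 3 arrays of each group lie apart.

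L1cam, the founding member, whose human gene is mutated in X-linked hydrocephalus, had gene values of 12.23, 12.35 and 12.33 with Cugbp1 shRNA, against 12.16, 12.35 and 12.32 with control shRNA. The groups overlapped, and the difference was 0.03 with a standard error (SE) of 0.09. Chl1, the close homologue of L1, which the protease BACE1 sheds from the cell surface, had 12.26, 12.29 and 12.18 with Cugbp1 shRNA, against 12.40, 12.56 and 12.29 with control shRNA. All 3 pairs were lower with Cugbp1 shRNA, by 0.11 to 0.26 in size, yet the lowest control array was level with the highest knockdown array.
Nrcam, the neuron-glia related adhesion molecule of growing axons and of nodes of Ranvier, had 11.53, 11.74 and 11.66 with Cugbp1 shRNA, against 11.65, 11.85 and 11.76 with control shRNA. Its pairs differed by -0.12, -0.11 and -0.11, a nearly constant step within each replicate number. The arrays of 1 group had an SD of 0.10 in both groups. With the replicate number as a block Nrcam did not pass (limma, adjusted p = 0.193). Nfasc, neurofascin, which gathers channels at the axon initial segment and at nodes, had 10.52, 10.47 and 10.31 with Cugbp1 shRNA, against 10.64, 10.60 and 10.42 with control shRNA. Here too the pairs moved alike, by -0.11, -0.13 and -0.11, and the groups overlapped.

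Among the ankyrins, Ank3, ankyrin-G, the scaffold around which the axon initial segment is built, had 11.36, 11.49 and 11.37 with Cugbp1 shRNA, against 11.57, 11.64 and 11.55 with control shRNA. It was the 1 member of 7 whose groups did not overlap, which was also true of 25.2% of all genes, and its level was 88.6% of control. Ank2, ankyrin-B, which acts in axonal transport and in placing membrane proteins, had 12.27, 12.49 and 12.43 with Cugbp1 shRNA, against 12.14, 12.31 and 12.41 with control shRNA. It was higher in each pair, by 0.14, 0.18 and 0.02, with overlapping groups. Ank1, ankyrin-R, best known from the red cell membrane and also present in some neurons, had 8.55, 8.75 and 8.68 with Cugbp1 shRNA, against 8.57, 8.95 and 8.81 with control shRNA. Replicate 1 was the low array of both groups for Ank1, and the difference was -0.12 (SE 0.12, without the block). Its pairs differed by -0.02, -0.20 and -0.13. With the replicate number as a block Ank1 did not pass (limma, adjusted p = 0.228). Levels of different genes were not compared, since array values carry each probe's own affinity.

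The genes whose single probe sets are described next are shown here by the 250 bases before their first listed RefSeq start (build GRCm38.p6). The windows are read 5′ to 3′ on the gene's strand, with capitals marking a GC box core (GGGCGG) or a TATA box core (TATAAA) on either strand.
Nrcam (chr12:44328635-44328884, plus strand): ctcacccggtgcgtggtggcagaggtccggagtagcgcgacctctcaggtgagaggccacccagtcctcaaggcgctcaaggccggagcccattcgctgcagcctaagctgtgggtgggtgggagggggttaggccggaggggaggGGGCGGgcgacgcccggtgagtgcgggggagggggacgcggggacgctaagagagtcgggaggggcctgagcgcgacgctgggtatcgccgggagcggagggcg
Nfasc (chr1:132707327-132707576, minus strand): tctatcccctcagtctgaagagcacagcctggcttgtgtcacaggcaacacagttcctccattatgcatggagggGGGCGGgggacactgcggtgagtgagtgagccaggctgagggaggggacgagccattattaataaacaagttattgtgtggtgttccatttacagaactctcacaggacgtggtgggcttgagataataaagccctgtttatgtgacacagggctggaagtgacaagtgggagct
Ank2 (chr3:127499116-127499365, minus strand): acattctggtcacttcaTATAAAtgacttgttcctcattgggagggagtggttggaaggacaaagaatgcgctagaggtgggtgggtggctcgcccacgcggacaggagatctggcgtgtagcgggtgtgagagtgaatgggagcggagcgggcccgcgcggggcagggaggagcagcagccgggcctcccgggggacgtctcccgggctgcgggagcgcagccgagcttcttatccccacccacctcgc
Of all 32851 RefSeq windows of this length, 32.7% hold GGGCGG and 12.4% hold TATAAA, and these motifs do not overlap each other. The Nrcam window is 72.4% G or C with 25 CpG, the Nfasc window 52.0% with 4 and the Ank2 window 64.4% with 19. The table lists 1 start for Nrcam, 2 for Nfasc and 4 for Ank2, and has windows for 5 of the 7 members. Probe set sequences and their places within the genes were not analysed here, and the exons are left unnamed.

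At exon level 1 probe set of Nrcam stood far from the rest of its gene. Probe set 4999666 measured 4.82, 5.39 and 4.60 with Cugbp1 shRNA, against 7.50, 8.63 and 6.85 with control shRNA. The groups did not overlap, and all 3 knockdown arrays lay under the array medians while all 3 control arrays lay above them. The relative level, which is the probe set minus its gene value, differed by -2.57, -3.13 and -2.14 in replicates 1, 2 and 3, Cugbp1 shRNA minus control. The mean difference was -2.61 (SE 0.42, 95% confidence interval -3.63 to -1.60). No detection call was used here, and with all knockdown values under the array medians no percent of control is given for it.
The control arrays spread widely at this probe set, with an SD of 0.90 against 0.41 in the Cugbp1 shRNA arrays (n = 3 each). It passed the filter on low values through its control level, since the Cugbp1 shRNA mean of 4.94 was under the filter level of 5.73, and among the 361 member probe sets kept Chl1 5213759 passed in the same way through its Cugbp1 shRNA level. The difference was -2.63 in replicates 2 and 3 alone and between -3.01 and -2.17 when single arrays were left out.

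Other Nrcam probe sets were lower by far less. Probe set 4340934 measured 9.26, 9.21 and 9.10 with Cugbp1 shRNA, against 9.77, 9.74 and 9.56 with control shRNA, a relative difference of -0.39 (SE 0.13). Probe set 4523506 measured 10.28, 10.72 and 10.57 with Cugbp1 shRNA, against 10.84, 11.16 and 11.00 with control shRNA, a relative difference of -0.36 (SE 0.11). At both of them every knockdown array was under every control array, and they were picked out after their values were seen. Of 52 Nrcam probe sets 5 had groups apart on the relative level, all 5 lower with Cugbp1 shRNA, which is 9.62% of the gene's probe sets against 9.01% of all probe sets, while 44 stayed within 0.25 of the gene value's change. The rule for naming probe sets, the 4 of largest relative difference, also gave 5374714 at 0.57, 4790941 at 0.50 and 5305132 at 0.42, each with overlapping groups and an SE of 0.28 to 0.36. Without single arrays these ran from 0.25 to 0.90, from 0.34 to 0.78 and from 0.21 to 0.80, in that order.

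**Figure D2:**
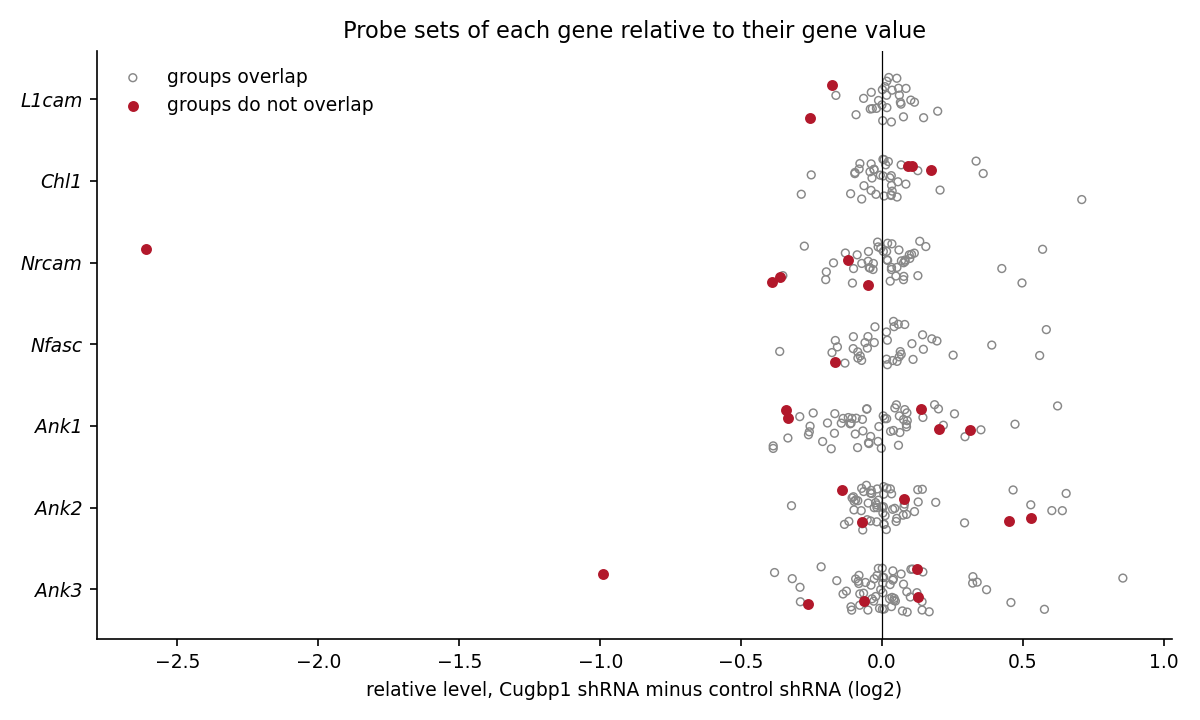
Relative level of each of the 361 kept probe sets, Cugbp1 shRNA minus control shRNA (log2, x axis), in 1 row per gene with vertical jitter, filled where the relative levels of the 2 groups do not overlap. Most points lie within 0.25 of 0, and Nrcam 4999666 at -2.61 and Ank3 5515581 at -0.99 lie farthest to the left.

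Over all members, 361 of 370 probe sets passed the filter. The 9 that did not were 6 of Ank3, 2 of Ank1 and 1 of Ank2. Of the 361, 26 had groups apart on the relative level, 7.20%, against 9.01% of all probe sets. Of these 26, 11 were higher with Cugbp1 shRNA (4.41% of all probe sets were) and 15 were lower (4.61% of all were), and 15 of the 26 differed by less than 0.25. A relative difference of at least 0.5 in either direction was reached by 14, or 3.88%, against 3.19% of all probe sets. Over all levels these shares are close to the background. The members' probe sets are brighter, though, with a median level of 11.46 against 8.88. At a mean from 5 to 7, 4 of 20 member probe sets reached 0.5, against 4113 of 43300 of all. From 7 to 9, 10 of 60 did, against 2929 of 84122. From 9 to 11, 0 of 74 did, against 675 of 80710, and above 11, 0 of 207, against 87 of 36474. Nothing is read from any of these shares because the same comparison chose the genes. With limma on the relative level 0 of the 361 and 0 of all 244606 probe sets were called, or 0%. Before adjustment 13 of the 361 had p under 0.05, beside 4.28% of all. The diffSplice test, which shares 1 variance among the probe sets of a gene, called 2 of the 361, Nrcam 4999666 and Ank3 5515581, beside 0.0822% of all. Nothing is read from these 2 calls either, since the genes were chosen by these levels. Nrcam 4999666 had also passed the filter through its control arrays.

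Ank3 held the other member probe set that was lower by at least 0.5 in relative level, beside the Nrcam one above. It is given as a description, since the genes were chosen by these levels. Probe set 5515581 measured 7.22, 7.59 and 7.16 with Cugbp1 shRNA, against 8.36, 8.84 and 8.27 with control shRNA. The 3 knockdown arrays were close together and all lower than the control arrays. The relative level differed by -0.99 (SE 0.16), which is 50.4% of control, and by -0.93, -1.10 and -0.94 in replicates 1, 2 and 3. The gene value of Ank3 was itself lower by 0.17 in size, so the whole difference at this probe set was -1.16. Of 71 kept Ank3 probe sets 58 stayed within 0.25. Probe sets 4506835 at 0.85 (SE 0.61) and 5143273 at 0.58 (SE 0.33) also reached 0.5, with overlapping groups, and are outside the naming rule, added after their values were seen.

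Of 64 kept Ank2 probe sets 3 were higher and 2 lower with groups apart on the relative level, 7.81% of them against 9.01% of all probe sets, and the larger of these differences were on the higher side. Probe set 4573483 measured 8.53, 8.69 and 8.48 with Cugbp1 shRNA, against 7.42, 8.19 and 8.18 with control shRNA, and its relative difference was 0.53 (SE 0.17). Every knockdown array was above every control array, and in relative level the pairs differed by 0.96, 0.33 and 0.28 in replicates 1, 2 and 3. Probe set 4410911 measured 11.57, 11.99 and 11.80 with Cugbp1 shRNA, against 11.06, 11.02 and 11.60 with control shRNA. Its values overlapped by a little, its relative levels did not, and the relative difference was 0.45 (SE 0.15). Both were picked out after their values were seen, since the 4 Ank2 probe sets of largest difference, 4345674, 4971476, 4963068 and 4452045, at 0.65, 0.64, 0.60 and 0.53, had overlapping groups and an SE of 0.45 to 0.59. Without single arrays 4345674 ran from 0.38 to 1.15, 4963068 from 0.19 to 1.15 and 4452045 from 0.12 to 1.19, while 4971476 was at 0.31 at its lowest and above 1 at its highest.

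**Figure D3:**
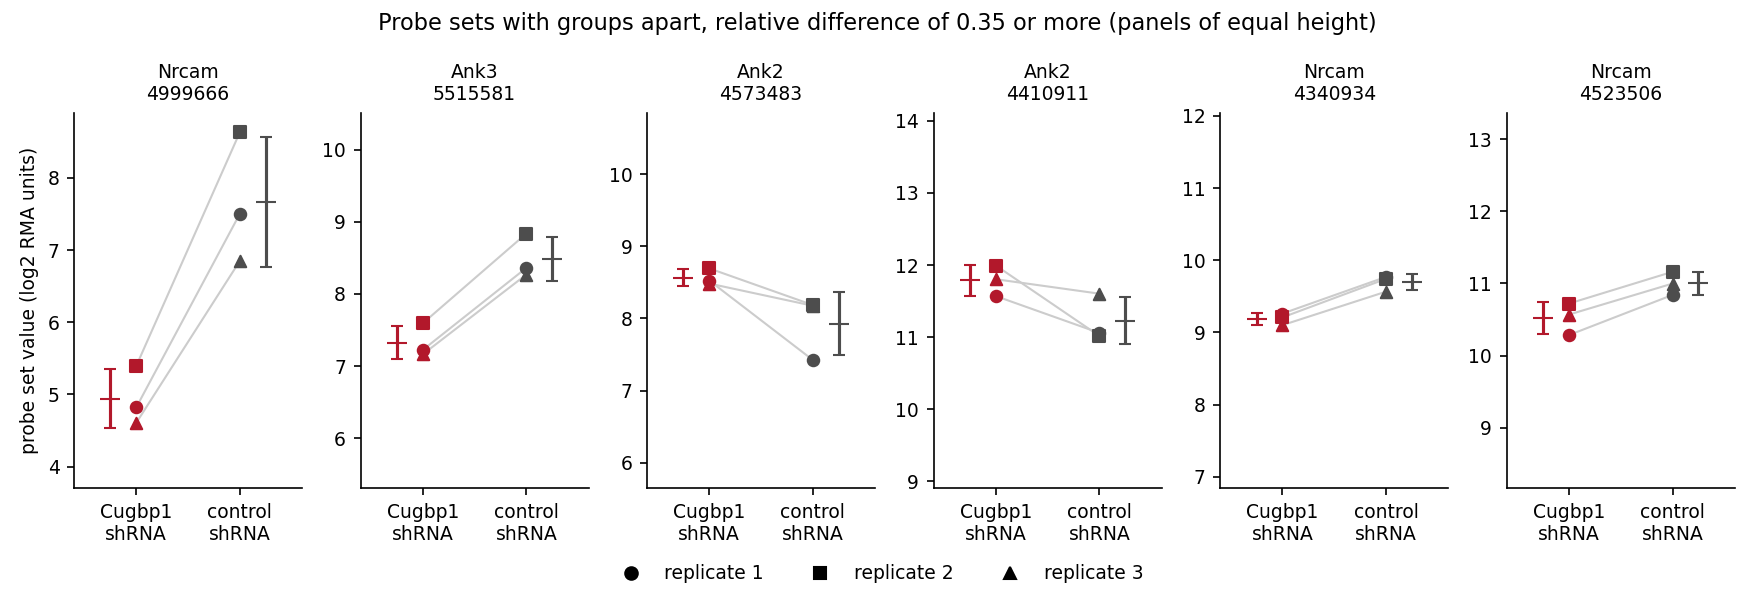
Values (log2 RMA units, y axis) of the 6 member probe sets whose relative levels do not overlap between the groups and differ by at least 0.35, with Cugbp1 shRNA left and control shRNA right, lines joining the same replicate number and bars at mean ± SD (n = 3). The panels have equal height, so the slope of Nrcam 4999666 can be set beside the smaller ones of Ank3, Ank2 and the other Nrcam probe sets.

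Nfasc showed no probe set with a large difference and groups apart. Its probe set 5161588 measured 9.63, 9.87 and 9.60 with Cugbp1 shRNA, against 9.30, 9.75 and 9.24 with control shRNA. All 3 pairs were higher with Cugbp1 shRNA and the groups overlapped, with a relative difference of 0.39 (SE 0.16). Probe sets 4708868 at 0.58 and 5523618 at 0.56 had SEs of 0.51 and 0.55. When single arrays were left out 4708868 ran from 0.01 to 1.05 and 5523618 from 0.15 to 1.14. Probe set 5164614 at -0.36 (SE 0.48) was at 0.03 without Cugbp1 shRNA replicate 3 and at 0.04 without control replicate 1, the opposite sign. The 1 Nfasc probe set of 40 with groups apart, 4748263, was lower by 0.17 in relative level.

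Among the remaining members the named probe sets were 5267355 of L1cam, 5213759 of Chl1 and 5328556 of Ank1. L1cam 5267355 measured 11.06, 11.38 and 11.23 with Cugbp1 shRNA, against 11.28, 11.57 and 11.51 with control shRNA, a relative difference of -0.26 with relative levels apart. L1cam was the most even gene, with 30 of 31 probe sets within 0.25. Chl1 5213759 measured 6.56, 5.97 and 6.00 with Cugbp1 shRNA, against 6.67, 5.27 and 4.96 with control shRNA, a relative difference of 0.71 (SE 0.44) with overlapping groups. Its control mean of 5.64 was under the filter level of 5.73, so it was kept through its Cugbp1 shRNA values, and the difference ran from 0.42 to 1.24 when single arrays were left out. Ank1 5328556 measured 7.11, 7.09 and 6.50 with Cugbp1 shRNA, against 6.57, 6.64 and 5.97 with control shRNA. It was higher in each pair, by 0.55 to 0.67 in relative level, although the groups overlapped.

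Dim probe sets carried most of the large differences. All 14 probe sets with a relative difference of at least 0.5 had a mean under 9, where 80 of the 361 lie, and 11 of the 14 had overlapping groups. By same-numbered pairs, 13 of the 14 had the same sign in all 3, as had 143 of the 361. Overlap and pair sign were not counted over all probe sets of that size. The SD of the relative difference was 0.69 among 20 member probe sets with a mean from 5 to 7, 0.33 among 60 from 7 to 9, 0.16 among 74 from 9 to 11 and 0.09 among 207 above 11. Over all probe sets the SDs at these levels were 0.31, 0.22, 0.15 and 0.11. The 20 dimmest member probe sets include Nrcam 4999666 at -2.61, which widens their SD. It is not the only source of the wider spread. The median range of the relative level over the 6 arrays was 1.37, 0.97, 0.55 and 0.26 at these levels. Over all probe sets it was 0.87, 0.62, 0.41 and 0.28. In 44 of the 361 probe sets both replicate 1 arrays were above the other 4 arrays, and 28 of these 44 had a mean under 9. In 114 of the 361 both replicate 1 arrays were below the other 4. Nfasc 5523618 measured 9.76 with Cugbp1 shRNA and 9.75 with control shRNA in replicate 1, and 8.57 and 8.46 with Cugbp1 shRNA against 7.93 and 7.80 with control shRNA in replicates 2 and 3. The step between replicate numbers was thus wider there than the step between the groups. Of the 12 probe sets named for Nrcam, Nfasc and Ank2, 9 had both replicate 1 arrays above the other 4, and Nrcam 4999666 was not among them. These replicate 1 counts were not made over all probe sets, so they are not read as a trait of the members. The part of brightness and replicate in these differences was not tested.

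**Figure D4:**
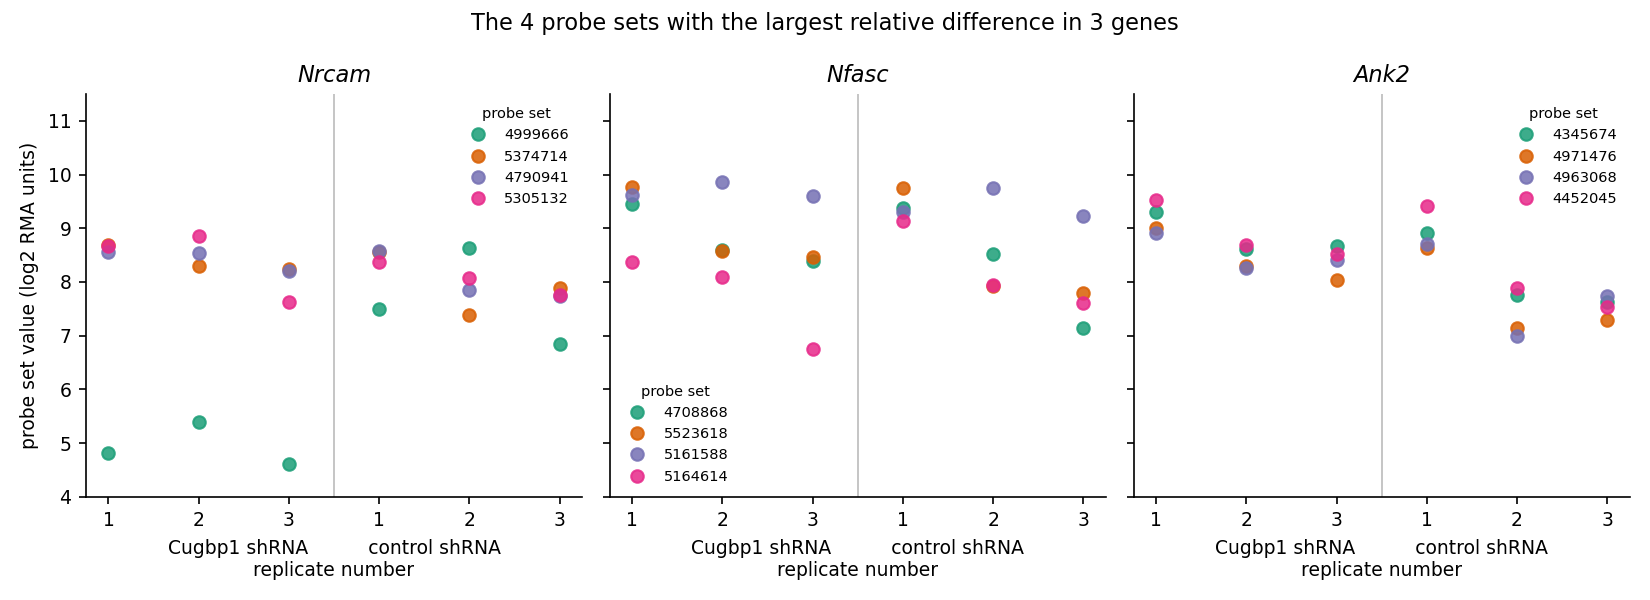
Values (log2 RMA units, y axis) of the 4 probe sets with the largest relative difference in Nrcam, Nfasc and Ank2, 1 point per array, Cugbp1 shRNA replicates at the left and control shRNA replicates at the right of each panel. In the Ank2 panel the replicate 1 points are the highest of both groups, while Nrcam 4999666 lies between 4.60 and 5.39 on the Cugbp1 shRNA arrays and between 6.85 and 8.63 on the control arrays.

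Genes that work with the family were read from the same fit over all genes, in 4 lists, beside the background of 3.94% called. Of 20 genes of the spectrin and actin membrane skeleton and of ankyrin partners, 1 rose and 1 fell, with a list median of 0.00 (-0.01 over all genes). Tmod2, tropomodulin 2, a neuronal cap of actin filaments, had 11.26, 11.41 and 11.18 with Cugbp1 shRNA, against 12.22, 12.37 and 12.28 with control shRNA. It fell by 1.01 (SE 0.10, limma, adjusted p = 0.0124), with the groups well apart. Zdhhc8, a palmitoyltransferase reported to act on ankyrin-G, had 9.69, 9.90 and 9.87 with Cugbp1 shRNA, against 9.34, 9.41 and 9.35 with control shRNA, and rose by 0.45 (SE 0.09, limma, adjusted p = 0.0451). The related Zdhhc5 was at -0.38 (limma, adjusted p = 0.0711) and the band 4.1 homologue Epb41l1 at -0.38 (limma, adjusted p = 0.129).

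Of 19 genes of the axon initial segment and node of Ranvier, 1 fell and 0 rose, with a median of -0.02. Cntn2, contactin 2 or TAG-1, an adhesion molecule that binds L1 and NrCAM, had 8.90, 9.06 and 8.94 with Cugbp1 shRNA, against 9.47, 9.77 and 9.48 with control shRNA. It fell by 0.61 (SE 0.11, limma, adjusted p = 0.0353), and all 3 knockdown arrays were below all 3 control arrays. Fgf14, a modulator of sodium channels, was at -0.30 (limma, adjusted p = 0.148), Scn3b, a sodium channel beta subunit, at -0.25 (limma, adjusted p = 0.167) and Trim46, which bundles microtubules in the proximal axon, at 0.21 (limma, adjusted p = 0.215).

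Of 21 partners, proteases and signalling proteins of the L1 family, 1 rose and 0 fell, with a median of -0.02. Msn, moesin, which links membrane proteins to actin, had 9.26, 9.36 and 9.27 with Cugbp1 shRNA, against 8.87, 8.88 and 8.81 with control shRNA. It rose by 0.44 (SE 0.08, limma, adjusted p = 0.0363). Sdcbp, syntenin, was at 0.41 (limma, adjusted p = 0.0504), Nrp1, the semaphorin co-receptor neuropilin 1, at -0.47 (limma, adjusted p = 0.0767) and Dcx, doublecortin, a microtubule protein that binds neurofascin, at -0.45 (limma, adjusted p = 0.0893). Of 22 other immunoglobulin adhesion molecules 0 passed in limma, and the median was -0.09. Before adjustment 3 of the 22 had p under 0.05 in limma, beside 18.8% of all genes. Negr1, Dscaml1, Kirrel3 and Cntn4 were at -0.31, -0.32, -0.48 and -0.29, with limma adjusted p values of 0.0961 to 0.271.

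The 4 calls in these lists did not hold under every setting. Without any single array Cntn2, Msn and Zdhhc8 did not pass (limma, adjusted p = 0.0702 to 0.260), and of these settings Tmod2 passed only without control replicate 1 (limma, adjusted p = 0.0402). These settings called only 0 to 271 of all 16524 genes, against 651 with all 6 arrays. The differences ran from -1.05 to -0.94 for Tmod2, -0.65 to -0.48 for Cntn2, 0.33 to 0.42 for Msn and 0.35 to 0.52 for Zdhhc8. Msn and Zdhhc8 did not pass with no filter (limma, adjusted p = 0.0541 and 0.0538) or with means in place of median polish, nor did Zdhhc8 after median centring. In replicates 2 and 3 alone Cntn2 did not pass (limma, adjusted p = 0.0548). Tmod2, Msn and Zdhhc8 did pass there (limma, adjusted p = 0.0316, 0.0482 and 0.0420). With the replicate number as a block, where 23.2% of all genes were called, 1 skeleton gene rose and 6 fell, 1 initial segment gene rose and 5 fell, 3 L1 partners rose and 5 fell, and 0 other adhesion molecules rose and 5 fell. The 12 named partner genes that did not pass above all passed with the block (limma, adjusted p = 0.00429 to 0.0491). Nothing is read from that, since they were named for their small p on the same arrays.

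**Figure D5:**
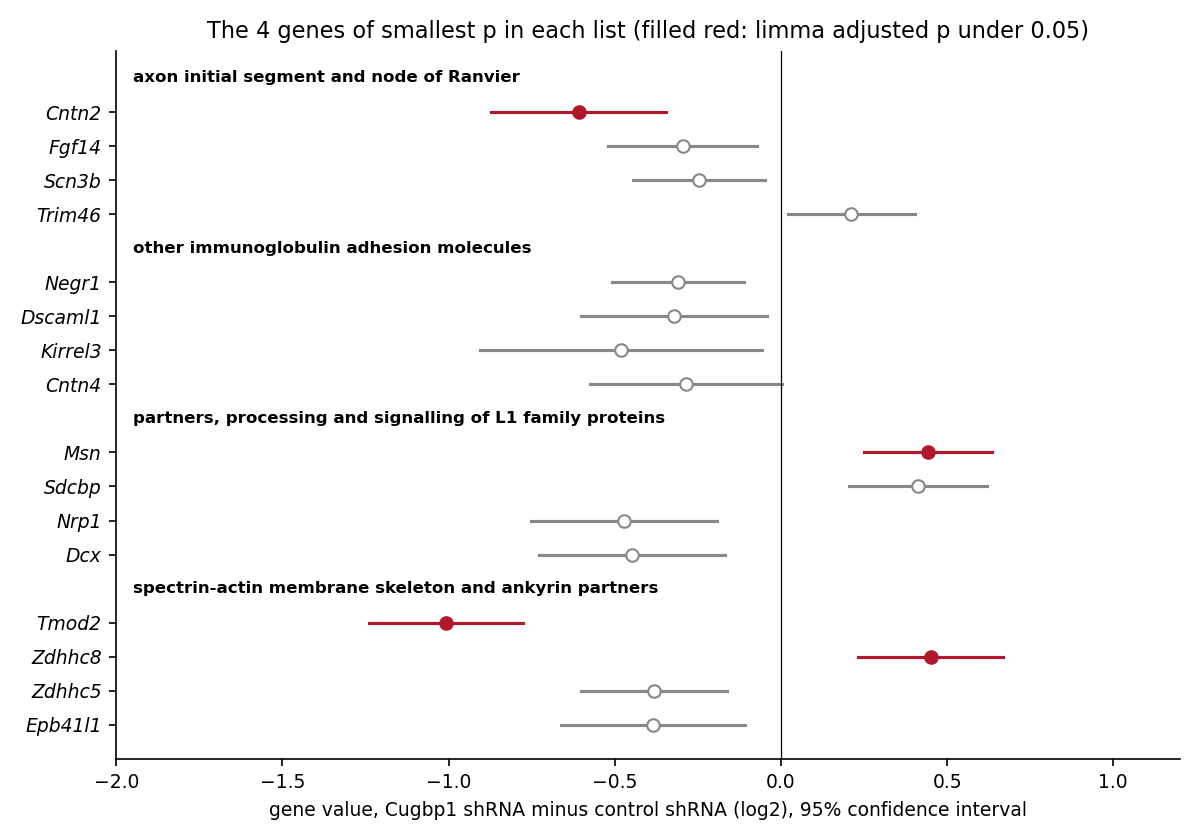
Difference in gene value, Cugbp1 shRNA minus control shRNA (log2, x axis), with its 95% confidence interval, for the 4 genes of smallest p in each of 4 lists. Tmod2, Cntn2, Msn and Zdhhc8, filled red, passed an adjusted p under 0.05, and the other 12 genes, open grey, did not.

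The cultures carried neuronal and glial markers, and both neurons and glia express members of the family. The median gene value of 9 neuronal markers was 12.38 to 12.51 on the Cugbp1 shRNA arrays and 12.34 to 12.56 on the control arrays. For 11 oligodendrocyte lineage markers it was 9.36 to 9.72 with Cugbp1 shRNA and 9.24 to 10.1 with control shRNA, and for 10 astrocyte markers 10.01 to 10.27 with Cugbp1 shRNA and 9.92 to 9.99 with control shRNA. The median of 8 microglia markers was 6.52 to 6.86 with Cugbp1 shRNA and 6.57 to 6.80 with control shRNA, and that of 7 endothelial, mural and fibroblast markers 7.37 to 7.68 with Cugbp1 shRNA and 7.26 to 8.05 with control shRNA. The astrocyte list medians were a little higher on all 3 Cugbp1 shRNA arrays, although 4 of the 10 astrocyte markers had the higher mean and 6 the lower mean with Cugbp1 shRNA, with a median difference of -0.02. The other ranges overlapped. Of the neuronal, oligodendrocyte lineage, astrocyte and microglia markers 0 were called in limma. At an unadjusted p under 0.05 (limma) there were 0, 0, 1 and 0 of them, in that order, beside 18.8% of all genes. Pdgfrb, a receptor of mural cells, fell by 0.80 (limma, adjusted p = 0.0415) among 7 endothelial, mural and fibroblast markers. That call was lost without any single array (limma, adjusted p = 0.0802 to 0.216), settings in which 0 to 271 of all 16524 genes were called. The markers of smallest p in the other lists were Acsbg1, an astrocyte lipid enzyme, at 0.36 (limma, adjusted p = 0.123, and 0.0142 with the replicate block), Cspg4, the NG2 proteoglycan, at 0.23, Nefm, a neurofilament subunit, at -0.30, and C1qa, a complement subunit, at -0.23 (limma, adjusted p = 0.710, and 0.0362 with the replicate block). Aldh1l1, an astrocyte folate enzyme, was at -0.21 (limma, adjusted p = 0.369, and 0.0411 with the replicate block). The remaining genes among the 4 of smallest p in each marker list, Aqp4, Gja1, Rgs5, Pecam1, Dcn, C1qb, Itgam, Tmem119, Tubb3, Eno2, Nefl, Olig1, Sox10 and Pdgfra, lay between -0.26 and 0.20 and did not pass with or without the block. In such bulk RNA fewer cells of a type and less RNA per cell cannot be told apart, and the part of cell composition in the differences above was not tested.

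Some genes followed the members closely over the 6 arrays, as a description. The 3 genes with the highest Pearson correlation of gene values were Acoxl, Abtb2 and Nedd9 for Nrcam (0.997, 0.996 and 0.994), Med12, Srp72 and Nudcd2 for Nfasc (0.997, 0.995 and 0.995) and Iqsec3, Sqstm1 and Snrpf for Ank2 (0.997, 0.997 and 0.990). With 6 arrays and 16524 genes such values arise easily, and the arrays share their replicate numbers.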

How the data were processed

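Total RNA, 100 ng per array, was measured on a mouse exon array in 6 samples. The authors deposited log2 RMA values, 1 per exon probe set and array, with RMA and Affymetrix Expression Console named in the submitters' processing notes, beside mm9. No version is given in the sources used here. RMA aligns the arrays' distributions, so differences in total signal are removed. The number of arrays limits the precision, and array data give no read depth.

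The platform annotation gave a single symbol to 316997 of 1195555 probe sets, several to 6571, and did not list 871987. Symbols were updated through RefSeq (GRCm38.p6). Probe sets with a mean over 6 arrays of at least 5.73, the median of all, were kept, and genes with at least 3 of them received a value by Tukey median polish, 16524 in all. Differences are Cugbp1 shRNA minus control from limma 3.58.1 (R 4.3.3, data.table (1.17.8), lmFit and eBayes, two-sided, Benjamini-Hochberg over all genes), with no further term. The relative level is a probe set minus its gene value, tested with its own variance over 244606 probe sets. The scripts were tested on simulated data. Figures were drawn with matplotlib 3.10.9.

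The members and lists were chosen with earlier results of these data known. Named are the members, Celf1, the 4 genes of smallest p per list, the 4 probe sets of largest relative difference in Nrcam, Nfasc and Ank2 and 1 in each other member, and 3 genes of like pattern for each of Nrcam, Nfasc and Ank2. The array of each group whose title has no number was taken as replicate 1, and the titles number replicates 2 and 3. Deviations from the group means correlated across genes at 0.763, 0.504 and 0.715 between same-numbered arrays, so the numbers were taken to pair the arrays, and the fit with a replicate block was run as 1 of 16 alternatives.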

Additional observations from a re-analysis of the deposited data

How the results depend on the processing

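The replicate block called 3827 genes, against 651 without it, eBayes with trend and robust variances 1089 and a filter at the 75th percentile 1039, while leaving out single arrays gave 0 to 271. None of the 7 members was called under any of the 14 gene-level alternatives, and the block left 0 member probe sets called. On the relative level 0 probe sets were called under each alternative but diffSplice, which called 201, of which 2 belong to the members, and without single arrays 0 were called. Leaving out single arrays gave 0 to 1 calls in the skeleton list and 0 in the initial segment, L1 partner, other adhesion and endothelial, mural and fibroblast lists. With the replicate block the lists held 7 skeleton, 6 initial segment, 8 L1 partner, 5 other adhesion, 2 astrocyte and 1 microglia calls. Trend and robust variances gave 2 initial segment, 4 L1 partner and 1 other adhesion call, and the 75th percentile filter 3 L1 partner and 1 other adhesion call. The arrays with a number in their title alone gave 0 initial segment, 1 other adhesion and 0 endothelial, mural and fibroblast calls. Among all genes they called 256 higher and 421 lower. L1 partners had 2 calls after quantile normalization and 0 with no filter or with means in place of median polish. The block ended no call named in the report. The skeleton list had 1 call with no filter and 1 after median centring. Nrcam 4999666 was at -3.01 to -2.17 without single arrays and at -2.63 to -2.57 under 9 other settings. Its groups do not overlap, so leaving out 1 array could not turn its sign, and nothing is read from that. The 75th percentile filter dropped this probe set, Chl1 5213759 and Ank1 5328556. Why calls came and went was not tested. Signal close to the array medians limits what dim probe sets can show.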
